A study of Mus musculus with 11 samples.

Results

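The serine and folate one-carbon enzymes followed here are Shmt1, Shmt2, Mthfd1, Mthfd2, Phgdh, Psat1, Psph and Atic. They were measured in RNA of E-mu-BRD2 lymphomas, mouse B cell tumours driven by the BET protein BRD2. All probe sets annotated to only 1 of these 8 genes were taken, which gave 20 of the 22626 non-control probe sets on the array and covered 7 of the 8 genes, out of 12393 genes with a probe set of their own. Shmt1, Shmt2 and Phgdh had 4 probe sets each, Mthfd1 had 3, Mthfd2 and Psat1 had 2 each and Psph had 1. Atic is not analysed here. The genes were taken up with their signals by class and spleen grade already known, so their levels and differences are a description and carry no test.

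Serine is made from a glycolytic intermediate by the enzymes PHGDH, PSAT1 and PSPH in turn. The serine hydroxymethyltransferases then pass a carbon from serine to folate and leave glycine, SHMT2 in mitochondria and SHMT1 mainly in the cytosol. MTHFD2 oxidises the folate-bound carbon in mitochondria, and MTHFD1 handles it in the cytosol, where it is used to build purines and thymidylate. Dividing lymphocytes are known for high use of this pathway, because they need nucleotides.

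The mice carried the E-mu-BRD2 genotype on the FVB background, and E-mu names the immunoglobulin heavy chain enhancer that drives the transgene in B cells. There were 6 marginal and 5 transitional lymphomas, 2 of the classes into which the study divides the disease by severity, with 1 array each. Every tumour was recorded as oligoclonal for immunoglobulin, and no untreated or wild-type B cells are analysed here, so no background level outside the tumours is given. Each label also grades how far the spleen was enlarged. A spleen named below by its grade stands for that label, and not for the tissue sampled. Marginal 1 has the grade marginal, marginal 2 to 4 are mild, and marginal 5 and 6 are moderate. Of the transitional lymphomas number 3 is mild, numbers 4 and 5 are moderately severe, and numbers 1 and 2 are severe. Failure to nest was recorded for all 5 transitional and 2 of the 6 marginal lymphomas. The labels give neither the age of the animals nor the tissue that was sampled. Nothing in them says that the samples came from separate animals, so p-values measure the spread between these samples, and the number of arrays limits the precision.

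Signals are MAS5 intensities on a linear scale, with median signals per array between 98.8 and 151. Differences are of log2(signal + 16), so that those of dim probe sets are understated. Transitional 4 and 5, the arrays with the spleen grade moderately severe, stood apart from the other arrays. The B cell marker list, 9 tested genes of 10, had a summed signal of 9814 and 6748 on these 2 arrays and between 24453 and 86619 on the other 9. The erythroid list, 8 tested genes of 12, had 113684 and 96765 against 3301 to 87762 elsewhere. The class differences and grade slopes of the enzymes and the class counts of the gene lists are therefore also given without them. The Brd2 probe set with the highest mean signal ran from 1844 on transitional 4 to 3504 on marginal 4 (log2 difference between classes −0.24, SE 0.19, adjusted p = 0.999 in limma), and whether it reads the transgene was not tested.

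The 250 bases before the annotated transcription start are shown for 4 of the genes. To these belong the 8 probe sets called between moderately severe and severe spleens, 4 lower (Phgdh and 1 Psat1 set) and 4 higher (Mthfd2 and Mthfd1). That comparison has 2 arrays per grade and was chosen after the signals had been seen. It called 25.1% of all tested probe sets, 9.86% higher and 15.2% lower, so the choice only sets what is displayed. The sequences are from RefSeq (build GRCm38.p6), read 5′ to 3′ on the strand of the gene. All lie on the minus strand except Mthfd1. The windows of Mthfd2 and Mthfd1 lie within the annotated bounds of their genes (chr6:83305704-83326011 and chr12:76254406-76319820). A start farther upstream would not be covered. Capitals mark CCAAT, the box bound by NF-Y, on either strand, so that a box on the opposite strand reads ATTGG.

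Phgdh, chr3:98339970-98340219: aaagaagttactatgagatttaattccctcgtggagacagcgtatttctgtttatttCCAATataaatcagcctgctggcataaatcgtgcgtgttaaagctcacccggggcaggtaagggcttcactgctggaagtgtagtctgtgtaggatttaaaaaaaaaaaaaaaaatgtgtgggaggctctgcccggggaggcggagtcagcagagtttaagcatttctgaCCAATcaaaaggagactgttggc
Psat1, chr19:15925060-15925309: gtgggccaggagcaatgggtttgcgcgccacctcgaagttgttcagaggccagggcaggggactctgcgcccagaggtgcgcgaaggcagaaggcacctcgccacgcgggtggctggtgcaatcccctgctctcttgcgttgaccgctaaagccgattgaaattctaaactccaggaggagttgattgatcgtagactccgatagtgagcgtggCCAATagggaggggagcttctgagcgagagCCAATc
Mthfd2, chr6:83317605-83317854: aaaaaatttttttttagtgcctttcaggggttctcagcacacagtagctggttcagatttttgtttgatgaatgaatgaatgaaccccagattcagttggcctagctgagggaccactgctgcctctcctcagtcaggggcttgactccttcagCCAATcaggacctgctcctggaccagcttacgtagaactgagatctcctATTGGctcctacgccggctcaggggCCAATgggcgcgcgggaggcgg
Mthfd1, chr12:76254982-76255231: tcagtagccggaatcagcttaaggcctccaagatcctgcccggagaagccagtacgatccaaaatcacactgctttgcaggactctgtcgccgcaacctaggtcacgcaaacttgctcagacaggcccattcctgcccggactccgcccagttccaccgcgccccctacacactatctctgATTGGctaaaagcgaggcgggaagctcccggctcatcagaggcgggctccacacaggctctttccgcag

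All 7 measured genes had a promoter in the RefSeq table, Psat1 with 2 starts, of which the upstream one is shown. At least 1 CCAAT box lay in 6 of the 8 windows of these genes, against 33.8% of all 32851 promoter windows of this length. The 2 without a box were those of Shmt2 and of the downstream Psat1 start. Phgdh and the printed Psat1 window had 2 boxes each, both on the gene's own strand, the nearest beginning 23 and 6 bases before the start. Mthfd2 had 3 boxes, 2 of them on its own strand, and Mthfd1 had 1 on the opposite strand. The E-box CACGTG of MYC and MAX (6.02% of windows), the ATF4 composite motif TGATGNAA (3.45%) and the E2F motif TTTNGCGC (1.13%), searched on both strands, matched 0 of the 8 windows of these genes. These are letter matches in a short window and not sites of binding.

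Phgdh, the enzyme of the first step of serine synthesis, was lower on the moderately severe arrays than on the other 3 transitional arrays. Its brightest probe set (1437621_x_at) had a signal of 2650 on transitional 1, 2697 on transitional 2, 3108 on transitional 3, 924.5 on transitional 4 and 1285 on transitional 5. In the marginal class the lowest signal was 915 (marginal 2), the median 1650 and the highest 2706 (marginal 5). The classes overlapped, since transitional 4 and 5 lay between the 2 dimmest marginal arrays. On the other 3 Phgdh probe sets transitional 4 and 5 also lay below the other 3 transitional arrays, as on 37.7% of all tested probe sets. The brightest array was transitional 3 on 2 of these sets and transitional 2 on 1454714_x_at. On 1426658_x_at the highest signal was 2394 on transitional 3 and the lowest transitional signal 1091 on transitional 5. The widest of these was 1456584_x_at, at 1080 on transitional 1, 824 on transitional 2, 1285 on transitional 3, 227 on transitional 4 and 282 on transitional 5. All 4 Phgdh sets carry the suffix x, which marks probes that can also match other transcripts. Mthfd1 1436704_x_at carries it too, as do all Shmt2 sets but 1426423_at. The array holds 2 further sets that the annotation shares between Phgdh and a second gene.

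Psat1, the aminotransferase of the pathway, was measured by 2 probe sets that differed from each other on the moderately severe arrays. The dimmer (1454607_s_at) had a signal of 669 on transitional 1, 808 on transitional 2, 420 on transitional 3, 127 on transitional 4 and 179 on transitional 5. Its marginal signals ran from 135.5 to 398, with a median of 223. On this probe set the transitional class held both the brightest arrays of the series and, with transitional 4, the dimmest. The brighter (1451064_a_at) had 1162 on transitional 1, 927.5 on transitional 2, 665 on transitional 3, 733 on transitional 4 and 753 on transitional 5, against 314.5 to 730 in marginal lymphomas with a median of 496. Here only transitional 3 lay within the marginal range. The mean over the 5 transitional arrays was 848 ± 200.4 (SD), and that over the 6 marginal arrays was 526.5 ± 162 (SD).

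Psph, the phosphatase that releases serine, varied least of the 7 genes, each read by its brightest probe set. Its single probe set (1415673_at) had 828.9 on transitional 1 and between 447 and 552.5 on the other 4 transitional arrays. In marginal lymphomas it ran from 468 to 794 with a median of 527. The highest signal over the lowest was 1.86-fold over the 11 arrays, where the same ratio was 3.40 for the brightest Phgdh and 3.70 for the brightest Psat1 probe set. The class means, 566 ± 121 (SD, n = 6) and 576 ± 147 (SD, n = 5), differed by less than the spread within either class.

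Mthfd2, the mitochondrial dehydrogenase and cyclohydrolase of folate metabolism, was brightest on the moderately severe arrays by a wide margin. Its brighter probe set (1419254_at) had a signal of 641 on transitional 1, 1225 on transitional 2, 571 on transitional 3, 4505 on transitional 4 and 2138 on transitional 5. Marginal signals ran from 665.5 to 1200.5 with a median of 792. The dimmer set (1419253_at) gave 468, 486, 289, 2788 and 1224 on transitional 1 to 5 and 297 to 691 in marginal lymphomas, with a median of 364. On both sets transitional 4 and 5 lay above all 9 other arrays, as on 12.6% of all tested probe sets, and transitional 3 was the dimmest array. Without the moderately severe arrays the transitional signals of the brighter set ran from 571 to 1225, on either side of the marginal range.

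Shmt2, which feeds MTHFD2 with the carbon of serine in mitochondria, was dimmest on marginal 2 and brightest on a transitional array on both of its bright probe sets. The brightest probe set (1455084_x_at) had 1259 on transitional 1, 1945 on transitional 2, 969 on transitional 3, 1751 on transitional 4 and 1175 on transitional 5, with marginal signals from 407 to 1186 and a median of 880. The next (1426423_at) had 754, 1194, 420, 2353 and 1345 on transitional 1 to 5, and 325 to 777 in marginal lymphomas, with a median of 670. Transitional 3 was the dimmest transitional array on both. On the second set transitional 4 and 5 lay above all 9 other arrays, as on 12.6% of all tested probe sets. The other 2 Shmt2 sets were dim, between 32.2 and 240 on all arrays, and their transitional means were the higher, at 199 ± 30.3 against 133 ± 34.8 (1455985_x_at) and 144 ± 53.1 against 74.4 ± 27.1 (1434204_x_at; SD, n = 5 and n = 6).

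Mthfd1, the cytosolic enzyme that interconverts the folate-bound carbon, shared the high signal on the moderately severe arrays. The brightest set (1415916_a_at) had 794 on transitional 1, 1188 on transitional 2, 1254 on transitional 3, 2380 on transitional 4 and 2124 on transitional 5. Marginal signals ran from 708 on marginal 5 to 1891 on marginal 1, with a median of 1056. All 3 Mthfd1 sets had transitional 4 and 5 above the other 9 arrays, as did 12.6% of all tested probe sets. Marginal 1, the array with the lowest spleen grade, was the next brightest array on 1415916_a_at and 1415917_at. On the third set (1436704_x_at) the next brightest was marginal 6 at 609, with marginal 1 at 579.

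Shmt1, the cytosolic hydroxymethyltransferase, was measured by 4 probe sets that disagreed. The brightest (1425177_at) had 560 on transitional 1, 498 on transitional 2, 600 on transitional 3, 735 on transitional 4 and 792.5 on transitional 5, and in marginal lymphomas it ran from 73.3 on marginal 4 to 992 on marginal 5, with a median of 309. The other 3 sets, 1425179_at, 1425178_s_at and 1422198_a_at, had their highest transitional signal on transitional 2 (394, 252 and 297), and transitional 4 and 5 lay below transitional 1 and 2 on each. On marginal 5, where 1425177_at was brightest, 1422198_a_at had its lowest signal, 10.0. A level of Shmt1 in these tumours therefore depends on the probe set taken.

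**Figure D1:**
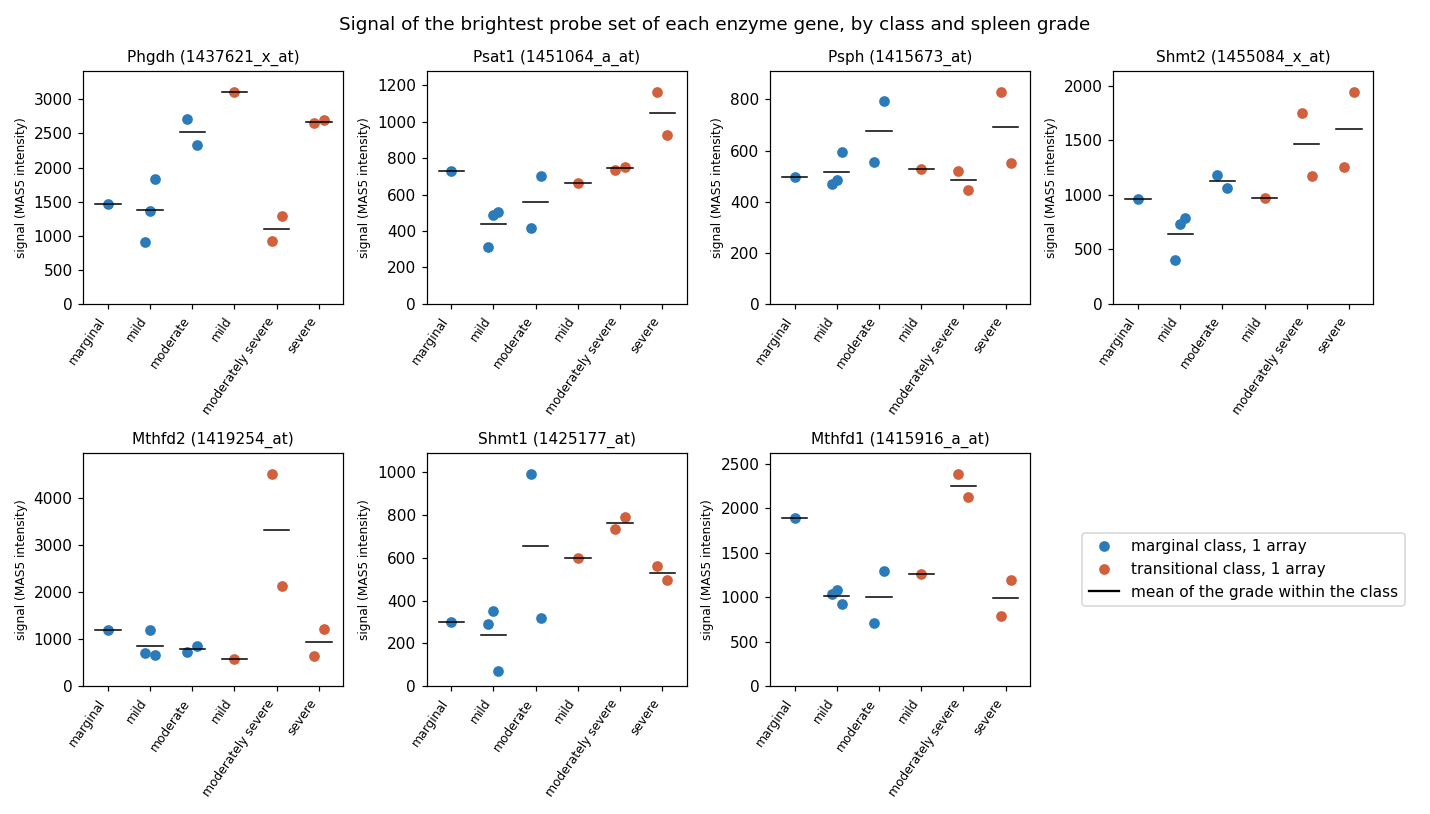
Signal (MAS5 intensity, linear axis from 0) of the brightest probe set of each measured enzyme gene, with 1 point per array, blue for the 6 marginal and orange for the 5 transitional lymphomas, grouped by spleen grade within class; black lines are means. Mthfd2 (4505 and 2138) and Mthfd1 (2380 and 2124) stand highest on the moderately severe arrays, where Phgdh (924.5 and 1285) is low.

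The map of deviations shows all 20 probe sets. Of the 7 probe sets of Phgdh, Psat1 and Psph, 6 were lower on both of these arrays than on the 3 other transitional arrays, all but Psat1 1451064_a_at. All 5 sets of Mthfd1 and Mthfd2 were higher there than on the 3 others. The Shmt1 sets divided, with 1425177_at above, 1425179_at and 1422198_a_at below and 1425178_s_at neither, and of the 4 Shmt2 sets 1426423_at was above and the others neither. Over the 20 sets, 7 lay above and 8 below the other 3 transitional arrays, where 23.4% and 37.7% of the 13576 tested probe sets did so. For 6 of 20 sets both arrays lay above all 9 others (12.6% of tested probe sets), and for 0 of 20 below (20.3%). Marginal 2, graded mild, was the dimmest array of the series on 8 of the 20 sets, among them 3 of the 4 Phgdh and 3 of the 4 Shmt2 sets.

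**Figure D2:**
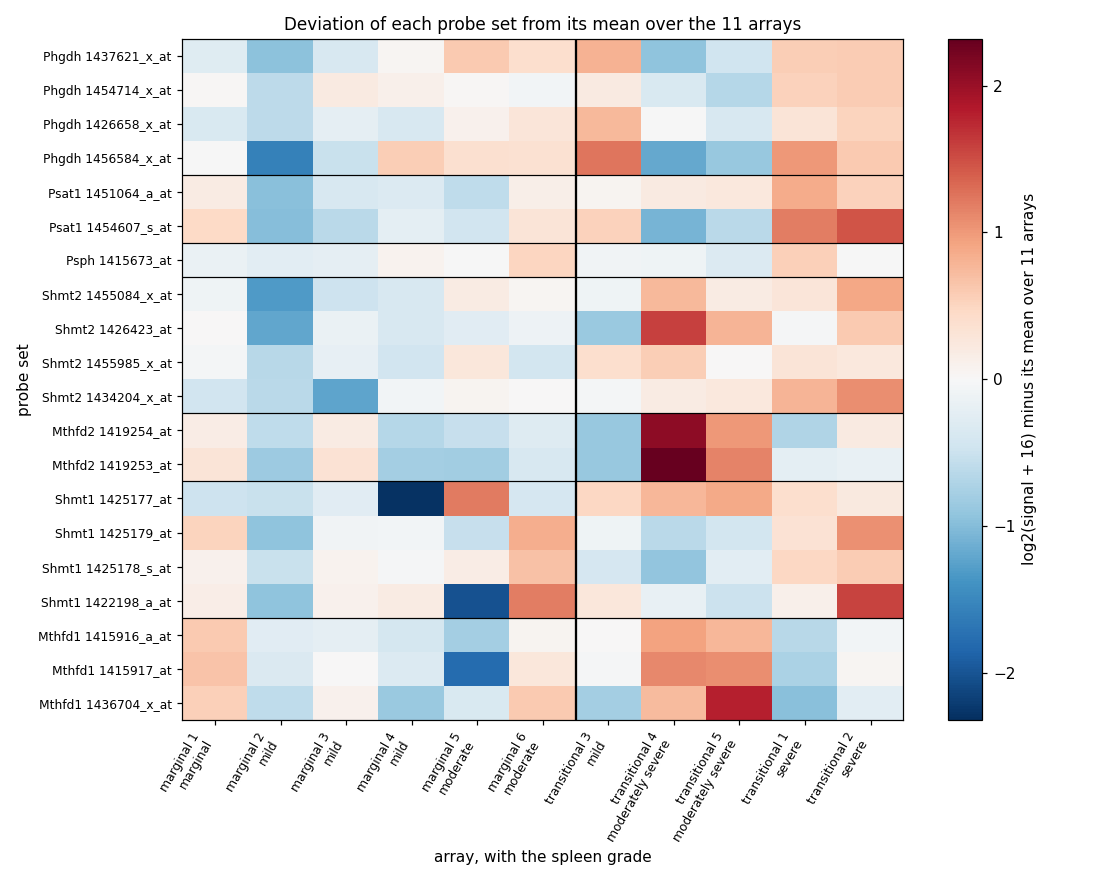
Deviation of each of the 20 probe sets (rows, grouped by gene) from its own mean over the 11 arrays, in log2(signal + 16), red above and blue below; columns are arrays ordered by class and then spleen grade, with the black vertical line between the classes. On transitional 4 and 5 the Mthfd2 and Mthfd1 rows are red and the Phgdh rows are blue or pale, while transitional 1 and 2 show the opposite in the Phgdh rows.

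The first comparison of the design sets transitional against marginal lymphomas. The mean was higher in transitional lymphomas for 19 of 20 probe sets, with a median log2 difference of 0.51. Over all tested probe sets 42.4% were higher and the median was −0.06. Psat1 1451064_a_at differed by 0.70 (SE 0.24), the brightest Shmt2 set by 0.74 (SE 0.29), the brightest Mthfd2 set by 0.63 (SE 0.47), the brightest Mthfd1 set by 0.37 (SE 0.32), the brightest Phgdh set by 0.21 (SE 0.37) and Psph by 0.02 (SE 0.21). The largest difference, 1.01 (SE 0.46), was that of Shmt1 1425177_at, and another Shmt1 set (1425178_s_at) was the only one with a lower mean, at −0.18 (SE 0.30). The signals of the 2 classes overlapped for all 20 sets, as they did for nearly all probe sets, since 0.103% of those tested lay apart with the transitional class higher and 0.125% with it lower. In limma 0 of the 20 sets and 0 of all 13576 tested (0.0%) had an adjusted p under 0.05, and at an unadjusted p under 0.05 there were 5 of 20 and 454 of 13576. Nothing is read from the members' counts, since class was known when they were chosen. Median scaling moved the median of all tested probe sets from −0.06 to 0.06, and the sign of none of the 20 differences turned under it or under quantile normalization.

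Without transitional 4 and 5 the class differences of Phgdh and Psat1 were larger and those of Mthfd1 and Mthfd2 lay near or below 0. The class difference was then 0.75 (SE 0.31) for the brightest Phgdh set and 1.08 (SE 0.42) for 1456584_x_at, and it was 0.80 (SE 0.29) and 1.31 (SE 0.35) for the Psat1 sets. For Mthfd2 it turned to −0.17 (SE 0.30) and −0.06 (SE 0.33), and for the brightest Mthfd1 set to −0.06 (SE 0.29). The brightest Shmt2 set stayed at 0.70 (SE 0.34), and Shmt2 1426423_at dropped from 0.77 (SE 0.38) to 0.26 (SE 0.35). The sign turned for 5 of the 20 sets in all, the others being Mthfd1 1436704_x_at (−0.58, SE 0.35) and Shmt1 1425178_s_at (0.15, SE 0.31).

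**Figure D3:**
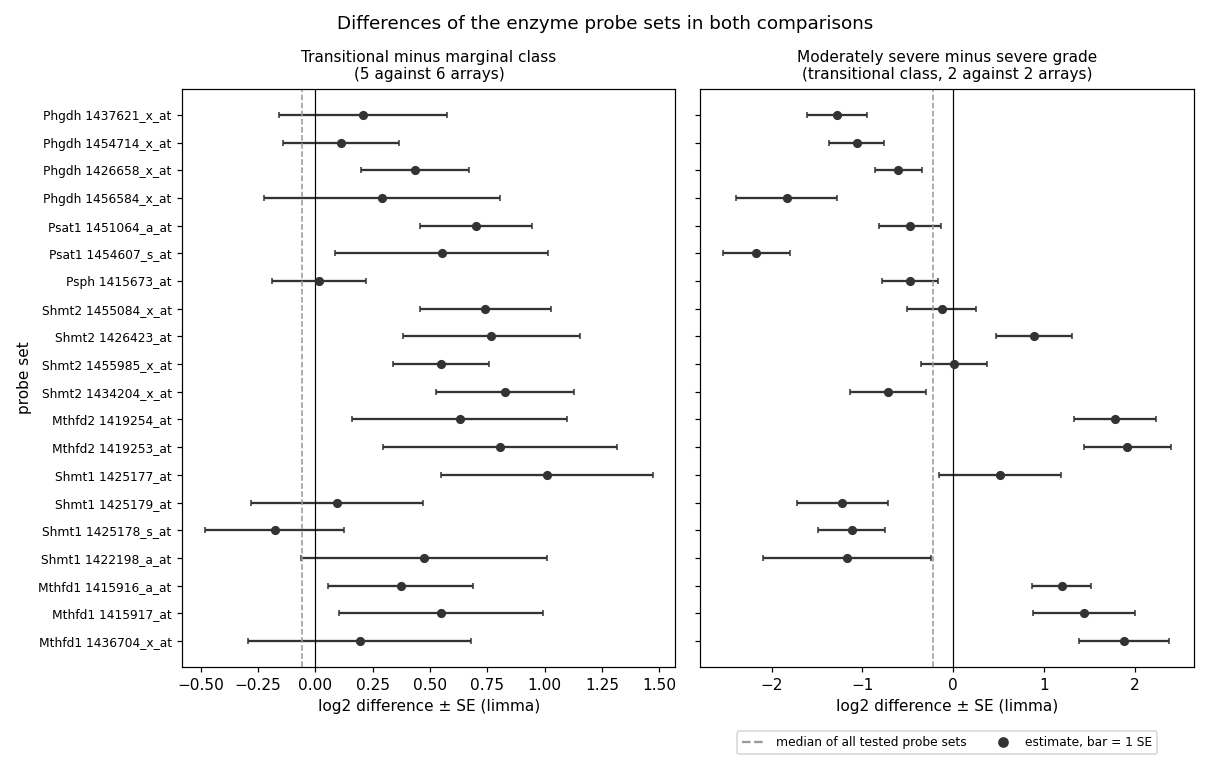
Log2 difference and 1 SE from limma for each of the 20 probe sets, transitional minus marginal class on the left and moderately severe minus severe grade within the transitional class on the right; the dashed line is the median of all tested probe sets (−0.06 and −0.22). On the left 19 of 20 points lie above 0, and on the right Phgdh and Psat1 lie below 0 while Mthfd2 and Mthfd1 lie above it.

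Spleen grade was next taken as a rank from 1 (marginal) to 5 (severe). The slope was above 0 for 19 of 20 probe sets, with a median of 0.14 log2 units per grade. Over all tested probe sets 45.1% of slopes were above 0 and the median was −0.01. All 4 Shmt2 sets sloped upward, from 0.15 (SE 0.09) for 1455985_x_at to 0.39 (SE 0.10) for 1434204_x_at, and so did both Psat1 sets, at 0.25 (SE 0.10) and 0.22 (SE 0.18). Mthfd1 had slopes of −0.0022 (SE 0.13), 0.0098 (SE 0.18) and 0.06 (SE 0.19). Without transitional 4 and 5 they were −0.14 (SE 0.10), −0.16 (SE 0.15) and −0.13 (SE 0.14), and 16 of the 20 slopes were above 0, with a median of 0.20. Mthfd2 1419254_at was then the other set below 0, at −0.0052 (SE 0.11), while all Phgdh, Psat1, Shmt1 and Shmt2 slopes stayed above 0. With limma 0 of 20 sets and 0.0% of the 13576 tested probe sets passed, with 4 and 292 at an unadjusted p under 0.05. With class in the model, 16 of 20 slopes were above 0 with a median of 0.09, against 53.4% and 0.01 over all tested probe sets. Again 0 of 20 and 0.0% passed in limma, with 1 and 298 at an unadjusted p under 0.05. Without transitional 3, that model called 1145 probe sets over the whole array and still 0 of the 20.

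A straight trend places the moderately severe spleens beside the severe ones. These grades were therefore also compared directly, a comparison chosen after the signals had been seen, with 2 arrays in each grade. The brightest sets of Mthfd2 and Mthfd1 were higher on the moderately severe arrays by 1.79 (SE 0.45) and 1.20 (SE 0.33) on the log2 scale, which for Mthfd2 is 3.46-fold. The brightest Phgdh set had a log2 difference of −1.28 (SE 0.33), and the Psat1 sets had −2.17 (SE 0.37; 1454607_s_at) and −0.47 (SE 0.34; 1451064_a_at). Psph had −0.48 (SE 0.31). The Shmt2 sets ran from −0.71 (SE 0.42) to 0.90 (SE 0.42), and 3 of the 4 Shmt1 sets lay between −1.22 and −1.12, with 0.52 (SE 0.67) for 1425177_at.

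In limma 8 of the 20 sets had an adjusted p under 0.05 in this comparison, 4 higher (both Mthfd2 sets and Mthfd1 1415916_a_at and 1436704_x_at) and 4 lower (Phgdh 1437621_x_at, 1454714_x_at and 1456584_x_at, and Psat1 1454607_s_at). Over the array 25.1% of tested probe sets passed, 9.86% higher and 15.2% lower, and nothing is read from the members' count, since grade was known when they were chosen. The count was 1 without transitional 1, 4 without transitional 2, 2 without transitional 4 and 3 without transitional 5, where the lone array of a grade is assumed to vary like the other groups. Without any 1 of the other 7 arrays it was 7 to 9. It was 4 higher and 3 lower after quantile normalization, and 6 higher and 1 lower after median scaling. The median difference of all tested probe sets was −0.22 as deposited, −0.03 after quantile normalization and 0.18 after median scaling. Of the calls over the array, 39.3%, 49.7% and 66.6% respectively were higher. Relative to this shift the directions given for Mthfd2, Mthfd1, Phgdh and Psat1 held, and the brightest Shmt2 set turned from −0.12 to 0.30 under median scaling. Under median scaling Psat1 1451064_a_at was at −0.05 and Psph at −0.06.

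Markers of other cells moved with these 2 grades. The mean deviation of the erythroid list, in log2 units from its 11-array mean, was 2.07 and 1.82 on transitional 4 and 5 and −3.38 and −1.73 on transitional 1 and 2. That of the granulocyte list, 10 tested genes of 10, was 2.75 and 1.78 against −3.00 and −1.37, and that of the mitosis list, 19 of 20, was 1.56 and 1.33 against −1.05 and −0.37. The granulocyte list was also high outside these grades, at 3.33 on marginal 1 and 2.53 on marginal 3. The B cell list was at −2.01 and −2.10 against 0.47 and −0.18, and the T cell list, 6 of 8, at −1.39 and −3.65 against 2.20 and 1.66. The macrophage list, 7 of 8, stood at 2.91 on transitional 2 and at or below 1.14 on every other array. No marker was at 0, and the lowest single signals were 27.0 in the erythroid list, 4.2 in the B cell list and 6.0 in the T cell list. The part of these cells in the enzyme signals was not tested, and in such bulk samples fewer cells of a type and less RNA per cell cannot be told apart. In the marginal class the erythroid list was at 1.25, 0.96 and 1.45 on marginal 1, 2 and 3, and the brighter Mthfd2 set had 1186, 699.9 and 1200.5 there. On marginal 4, 5 and 6 the list was at −0.385, −0.27 and −0.11, and the same set had 665.5, 722 and 861.

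Neighbouring genes were read from lists written for the pathway, each gene by its brightest tested probe set. Between classes and along the grades 0 of these genes passed limma (smallest adjusted p over all tested probe sets 0.999 and 0.9996). Of 7 tested genes among 19 other folate enzymes and carriers, 4 had the higher mean in transitional lymphomas, with a median log2 difference of 0.16. Ggh, the hydrolase that trims folate polyglutamates, was at 0.56 (SE 0.32), and Mtfmt, which formylates the mitochondrial initiator tRNA, at −0.30 (SE 0.27). Mtrr, the reductase that keeps methionine synthase active, had the smallest p of this list along the grades, with a slope of 0.15 (SE 0.06). The 2 tested genes of the glycine cleavage system were at 0.43 (SE 0.29; Dld) and 0.19 (SE 0.27; Gcsh). Of the methionine cycle list, 3 of 9 genes were tested, with Ahcy, which clears S-adenosylhomocysteine, at 0.08 (SE 0.27) and Mtap, which salvages methionine, at −0.19 (SE 0.35). Among 11 tested purine genes 8 were higher, with Hprt, the salvage enzyme, at 0.46 (SE 0.19) and Ppat, the enzyme that commits to purine synthesis, at 0.31 (SE 0.22). Among 11 tested pyrimidine genes 5 were higher, with the CTP synthases Ctps at 0.46 (SE 0.26) and Ctps2 at −0.40 (SE 0.38). Among 11 genes of serine and glycine transport and use 6 were higher, with Slc38a2, a neutral amino acid transporter, at 0.36 (SE 0.19) and Sptlc1, a subunit of serine palmitoyltransferase, at −0.33 (SE 0.26).

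In the ATF4 list, genes of the response to lack of amino acids, 19 of 20 tested genes had the higher mean in transitional lymphomas, with a median of 0.29, while the median of all tested probe sets was −0.06. The smallest p were those of Ddit3, a stress transcription factor, at 0.56 (SE 0.26), and Sesn2, a leucine sensor, at 0.64 (SE 0.35). Without transitional 4 and 5 the split was 11 higher and 9 lower, with a median of 0.04. The mean signal of Myc was 1726 ± 1016 over the 6 marginal arrays and 1418 ± 256 over the 5 transitional ones (± SD), which is −0.12 (SE 0.33) in log2. Of its family and partners, 7 of 8 tested genes had the lower mean in transitional lymphomas (5 of 8 without transitional 4 and 5), with Mga and Mnt, MAX partners, at −0.78 (SE 0.32) and −0.64 (SE 0.28).

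The class counts of the other lists also moved without transitional 4 and 5. Of the mitosis list 15 of 19 genes had the higher transitional mean with these arrays and 1 of 19 without them, and of the DNA replication list 16 of 19 and 1 of 19. Of the pyrimidine list it was 5 of 11 and 2 of 11, of the purine list 8 of 11 and 7 of 11, and of serine and glycine transport and use 6 of 11 and 5 of 11. The other folate genes (4 of 7), the glycine cleavage system (2 of 2) and the methionine cycle list (2 of 3) kept their counts. With all arrays Mad2l1, a spindle checkpoint protein, was at 0.60 (SE 0.39) between classes, Bub1, a checkpoint kinase, at 0.60 (SE 0.58), Rfc3, a subunit of the clamp loader, at 0.59 (SE 0.32) and Orc6, of the origin recognition complex, at 0.61 (SE 0.42).

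Along the grades the genes of smallest p in each list had slopes, in log2 units per grade, that ran from −0.42 (SE 0.21) for Mxd3, a MAX partner, to 0.24 (SE 0.22) for Bub1. Hprt sloped by 0.18 (SE 0.07), Nars and Gars, tRNA synthetases of the ATF4 list, by 0.17 (SE 0.12) and 0.10 (SE 0.07), and Adss, an enzyme of AMP synthesis, by 0.11 (SE 0.06). Ctps and Ctps2 had 0.15 (SE 0.11) and −0.13 (SE 0.15), Ptdss2 −0.30 (SE 0.29), Slc38a2 0.07 (SE 0.08) and Mnt −0.17 (SE 0.12). Ggh, Dld and Gcsh lay between 0.13 and 0.15, Ahcy and Mat2b at 0.04 and 0.02, and Mad2l1, Orc6 and Mcm6 between 0.11 and 0.20.

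Between moderately severe and severe spleens more of these neighbours passed. This comparison has 2 arrays per grade and was chosen after the signals had been seen. The counts of these lists and the genes named from them are therefore a description. In the ATF4 list 7 of 20 rose and 0 fell, and 17 of 20 had the higher mean on the moderately severe arrays, against calls for 9.86% and 15.2% of all tested probe sets. Asns, asparagine synthetase, had 8388 on transitional 4 and 4087 on transitional 5, with 420 and 482 on transitional 1 and 2. Its log2 difference was 3.66 (SE 0.50). The transporter Slc7a5 rose by 2.34 (SE 0.51), Eif4ebp1, a repressor of translation initiation, by 2.04 (SE 0.35) and Atf4 itself by 1.30 (SE 0.36). The count in this list was 2 without transitional 1, 5 without transitional 2 and 3 without transitional 4 or 5. Aars, Ddit3 and Slc3a2 were the other 3 that rose.

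As deposited, 1 of 11 genes of the purine list rose, Paics at 0.99 (SE 0.25), and 0 fell. Over the array 9.86% of tested probe sets were called higher and 15.2% lower. Of the pyrimidine list 4 of 11 rose, the nucleotide enzymes Tk1 at 2.89 (SE 0.46), Rrm2 at 2.45 (SE 0.50), Rrm1 at 2.28 (SE 0.48) and Dut at 1.65 (SE 0.39), and Ctps2 fell by 1.28 (SE 0.35). Among genes of serine and glycine transport and use 3 of 11 rose and 2 fell. Slc6a9, a glycine transporter, rose by 3.40 (SE 0.59), Ptdss2, a phosphatidylserine synthase, by 3.47 (SE 0.63) and Slc1a5, a neutral amino acid transporter, by 1.27 (SE 0.33), while Sptlc1 fell by 1.02 (SE 0.29) and Slc38a1 by 0.92 (SE 0.30). As deposited, none of the 7 other folate genes passed, with Folr1 at 1.58 (SE 0.57) and Mtfmt at −0.89 (SE 0.35). These counts depended on the scaling. After median scaling 4 of 11 purine, 7 of 11 pyrimidine and 1 of 7 other folate genes rose. Of the calls over the array 66.6% were then higher. After quantile normalization 1 of 7 other folate genes rose. The methionine cycle list had 1 gene that fell, Mtap by 1.67 (SE 0.28). Of the mitosis list 14 of 19 rose and of the DNA replication list 17 of 19, with 0 falling in either. Without transitional 1, 4 and 5 in turn the mitosis count was 7, 6 and 8, the DNA replication count 5, 8 and 5 and the pyrimidine count of genes that rose 1, 3 and 2. Paics did not pass without transitional 1, 2, 4 or 5, and the 3 genes named as falling in the pyrimidine and transport lists did not pass after quantile normalization or median scaling. Genes of these lists named for this comparison were picked after their values were seen.

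**Figure D4:**
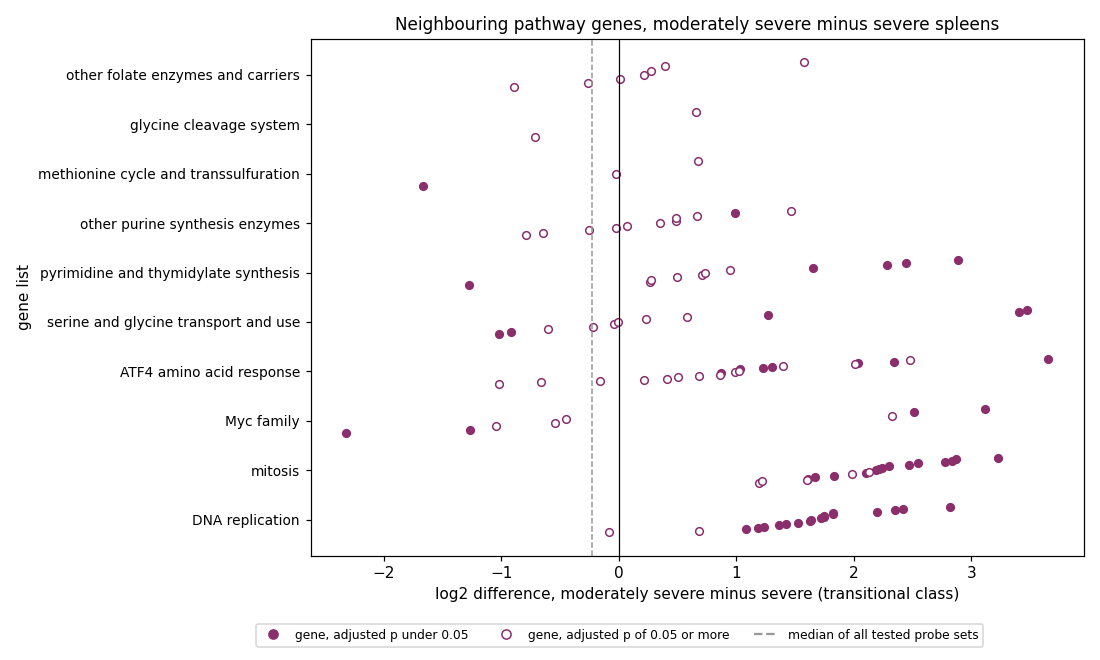
Log2 difference, moderately severe minus severe spleens of the transitional class, for each tested gene (1 point, its brightest probe set) of 10 lists around the pathway; filled points passed limma at an adjusted p under 0.05, the solid line is 0 and the dashed line the median of all tested probe sets, −0.22. The mitosis (14 of 19), DNA replication (17 of 19) and ATF4 (7 of 20) lists hold filled points to the right, and the other folate genes hold none.

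The non-member genes whose log2 signals followed each enzyme most closely over the 11 arrays were found by Pearson r, which is given as a description of these arrays. For Mthfd2 they were Ppat (r = 0.96), the enzyme that commits to purine synthesis, and the tRNA synthetases Aars (r = 0.96) and Cars (r = 0.95). Without transitional 4 and 5, the arrays farthest from the median of Mthfd2, these were 0.885, 0.888 and 0.835. For Mthfd1 they were Dlst, a subunit of the oxoglutarate dehydrogenase complex (r = 0.97), Ncaph2, a condensin subunit (r = 0.94), and Gab1, a signalling adaptor (r = 0.94). For Phgdh they were Eif1a, Prpf19 and Oxct1 (r = 0.94 for each). For Shmt2 they were the leucyl-tRNA synthetase Lars (r = 0.88), Acsl5 (r = 0.86) and C1qbp (r = 0.85), which were 0.754, 0.892 and 0.603 without marginal 2 and transitional 2. For Psat1 they were the pyrophosphatase Ppa1 (r = 0.91), Nxph3 (r = 0.86) and Ube2j1 (r = 0.85), which were 0.792, 0.828 and 0.765 without marginal 2 and 5. For Psph they were Erlec1 (r = 0.895), Ufm1 (r = 0.87) and Thtpa (r = 0.87), but 0.45, 0.658 and 0.58 without marginal 6 and transitional 1. For Shmt1 1425177_at they were Eif2ak2, the kinase PKR (r = 0.98), Armc1 (r = 0.87) and Stk19 (r = 0.85). Without the 2 arrays farthest from each median, r for Mthfd1, Phgdh and Shmt1 ran from 0.709 (Shmt1 with Stk19) to 0.938 (Mthfd1 with Dlst). Spearman's rho of these pairs ran from 0.618 for Psph with Erlec1 to 0.964 for Mthfd1 with Dlst.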

How the data were processed

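Total RNA of 11 lymphomas was hybridised to 1-colour Affymetrix arrays, 1 per lymphoma. The deposited values are linear intensities made by the authors with MAS5, per the submitters' processing notes (no version is given in the sources used here). Every array had a trimmed mean of 500.2. No array pair was identical. The 64 control probe sets were left out of 22690, and log2(signal + 16) was taken. The upper 60% by mean (13576 probe sets) were fitted with limma 3.58.1 (R 4.3.3, lmFit, eBayes with trend, two-sided, Benjamini-Hochberg, threshold 0.05). The procedure was tested on simulated data in which probe sets vary independently, so shifts shared by many probe sets were not covered. Of the probe sets, 20380 had 1 gene in GEO's platform annotation, 691 several and 1555 none. Symbols were updated through Entrez identifiers to the RefSeq table (GRCm38.p6).

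The members and gene lists were chosen with earlier results of these data known. Every member probe set is named; the brightest by mean log2 signal stands for a gene. Of each other list the text names the 2 genes with the smallest p between classes and the 2 by grade, and for each member the 3 genes of highest Pearson r. Myc and Brd2 are context. Genes named between moderately severe and severe spleens were picked after their values were seen. Alternatives were other offsets, normalizations, filters and array weights, no trend, a block on sample number, and arrays left out.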

Additional observations from a re-analysis of the deposited data

Results flagged for a closer look

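In 3 of 40 groups of arrays (20 probe sets in 2 classes) the highest or lowest array lay far from the others by Dixon's test at the 95% level. Chance does so in about 1 of 20 groups that are normally distributed and independent. These groups are linear signals of probe sets that share genes and arrays, so that rate is only a rough guide. Shmt1 1425177_at had 991.6 on marginal 5, where the next marginal array had 350. Shmt1 1422198_a_at had 297.1 on transitional 2, where the next transitional array had 110. Psph 1415673_at had 828.9 on transitional 1, where the next had 552.5.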

How the results depend on the processing

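The class difference and the grade trend called 0 probe sets under every alternative run, with 237 to 1079 and 185 to 1206 at an unadjusted p under 0.05 in limma. Leaving out 1 array in turn, the trend within class called 0 to 1145, with 1145 without transitional 3 and 1 without transitional 1. The comparison of moderately severe with severe spleens called 1253 to 3659, with 1711 without transitional 1, 2146 without transitional 2, 1724 without transitional 4 and 1253 without transitional 5; the cause was not tested beyond the smaller number of arrays. With the sample number as a block, 0 probe sets were called between classes, along the grades or within class. After the class mean of each probe set was subtracted, same-numbered arrays of the 2 classes correlated at −0.452 to −0.088 over 5 pairs. No likeness of same-numbered samples was seen, and whether the numbers mark pairs cannot be decided from this. The block and the fit without transitional 4 and 5 could not be fitted to the comparison of the 2 grades. Of the members' values under the alternatives, 397 of 415 kept their sign between classes, 396 of 415 along the grades and 370 of 375 between the 2 grades. The smallest signal of a member probe set was 10.0 (Shmt1 1422198_a_at on marginal 5), below the offset of 16.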

Other observations

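The array holds 2 further Phgdh probe sets whose annotation also names another gene, and they were not counted among the members. The set shared with Gm8096 (1426657_s_at) had signals of 1117 on transitional 1, 1270 on transitional 2, 1468 on transitional 3, 705 on transitional 4 and 684 on transitional 5. The set shared with Gm6756 (1456471_x_at) had 757, 796, 772, 590 and 480 on the same arrays. On both, transitional 4 and 5 lay below the other 3 transitional arrays, as they did on the 4 sets of Phgdh alone and on 37.7% of all tested probe sets. Marginal signals ran from 585 to 1211 on 1426657_s_at and from 552 to 776 on 1456471_x_at.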
